A study of Mus musculus with 8 samples.

Results

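The receptors through which joint fibroblasts sense IL-17A, TNF, interferon-gamma and IL-4 were followed in arthritic and healthy mouse synovium as 9 genes. Il17ra and Il17rc encode the chains of the IL-17A receptor and Traf3ip2 its adaptor. Tnfrsf1a and Tnfrsf1b encode the TNF receptors TNFR1 and TNFR2, and Ifngr1 and Ifngr2 the chains of the interferon-gamma receptor. Il4ra encodes the IL-4 receptor alpha chain, and Il2rg the common gamma chain. The genes were taken by symbol from the 32285 genes of the count matrices, and all 9 were found. They were read as counts of unique molecular identifiers (UMIs) in the 24227 annotated cells of 47658 barcodes, 21731 of them fibroblasts.

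IL-17A binds a receptor of the IL17RA and IL17RC chains, which recruits ACT1, the product of Traf3ip2, to switch on NF-kappa-B and to stabilise messenger RNAs of chemokines and proteases. TNF signals through TNFR1, found on most cells, and through TNFR2, which is more restricted and lacks a death domain. Interferon-gamma binds IFNGR1, and IFNGR2 completes the complex that activates the kinases JAK1 and JAK2. IL-4 binds IL4RA, which pairs with the common gamma chain in blood cells and with IL13RA1 in stromal cells. The common gamma chain also serves the receptors of IL-2, IL-7, IL-9, IL-15 and IL-21, and it is known chiefly as a gene of lymphocytes. Synovial fibroblasts are a main target of TNF and IL-17A in inflamed joints.

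Cells came from ankle and wrist synovial joints of 17 mice labelled 8 to 10 weeks old, each mouse marked by a hashtag antibody, in 4 droplet libraries of transcript 3′ ends. Arthritic mice carried the human TNF transgene hTNFtg197+ (strain label B6-Tg(TNF)197Gkl) and had received Il23mc for 9 days. They were untreated (3 mice), treated with anti-hTNF, which binds human TNF (3 mice, called TNF-inhibited), or with anti-mIL-17a, which binds mouse IL-17A (3 mice, called IL-17-inhibited), with 1 condition in each library. Each of these libraries of CD45- cells, taken without FAP enrichment, also held 1 healthy wild-type mouse with no treatment (3 healthy mice in all), and the remaining library held CD45- FAP+ Pdpn+ cells of 5 arthritic mice with no inhibitor (FAP-sorted). Healthy and arthritic mice therefore differed in the transgene and in Il23mc together. The transgene adds human TNF to an intact mouse Tnf gene, and human TNF is known to bind mouse TNFR1 far better than mouse TNFR2. Treatment and library cannot be told apart other than through the single healthy mouse of each library. Likewise the FAP sort, its library and its version of the counting software cannot be told apart.

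Before any result, 3 features of the libraries have to be stated. The hashtag assigned to healthy mice had the highest raw hashtag count in only 34.8, 22.7 and 9.93% of the fibroblasts assigned to healthy mouse 1 (untreated library), 2 (TNF-inhibited) and 3 (IL-17-inhibited), although it ranked first in 100% of them once counts were scaled per hashtag. The hashtag antibodies bind CD45 and B2m, and B2m RNA was lowest in the healthy mice, at 714 ± 105 CPM (SD, n = 3) against 2135 ± 440 in untreated arthritic mice. Its part in the hashtag counts was not tested, and healthy values are given below also over the 261, 123 and 41 cells in which the hashtag was highest by raw count. Between 32 and 51 barcodes were shared by each pair of libraries, of which 7 to 12 were annotated in both. Fibroblasts numbered 413 to 2037 per mouse and held 4508588 to 36786390 UMIs, with a median per cell of 9586 UMIs in healthy mice and 15287 to 17193 in the other groups.

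The 7 class labels were those of the authors' annotation, and they were compared with markers. Prg4, the lubricin gene of the synovial lining, reached 63940 CPM in Lining cells and at most 6432 CPM in any other class. Mmp3, Il6 and Pi16 were highest in the classes named for them. Cd200 was higher in Osteoblasts (339 CPM) than in the Cd200+ class (215 CPM). The osteoblast genes Bglap and Ibsp peaked in Osteoblasts. The cartilage genes Col2a1 and Acan peaked in Chondrocytes but at only 33.5 and 63.0 CPM. Chad and Matn3 also peaked there, while Comp was highest in Cd200+ cells (3417 against 2998 CPM) and Sox9 in Lining cells (184 against 172 CPM). These 6 chondrocyte markers summed to 3816 CPM in Cd200+ cells and 3739 CPM in Chondrocytes. Col1a1, a fibroblast and bone collagen, stood at 7973 CPM in Chondrocytes. This class is therefore written under its label without a claim that its cells were mature chondrocytes. Ptprc, which encodes CD45, was at or under 0.222 CPM in each of the 7 classes.

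The stretches just before the start sites are printed for the 4 genes with a promoter entry that passed the test in a comparison of summed fibroblasts among the 12 mice not sorted for FAP. Promoters of 7 of the 9 genes were found in RefSeq (build GRCm38.p6), and 250 bases before each start are given 5′ to 3′ on the gene's strand. Capitals mark matches, on either strand, to a GAS element bound by STAT factors (TTCNNNGAA), an ETS site (CCGGAAG) or the NF-kappa-B site (kappa-B). AP-1 sites (TGANTCA) were searched too.
Il2rg (chrX:101268256-101268505, minus strand): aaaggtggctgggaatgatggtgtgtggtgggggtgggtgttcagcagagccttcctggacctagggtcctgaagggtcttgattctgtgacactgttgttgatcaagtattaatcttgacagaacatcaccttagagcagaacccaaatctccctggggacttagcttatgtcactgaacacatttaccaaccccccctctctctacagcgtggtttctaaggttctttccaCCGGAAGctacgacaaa
Tnfrsf1b (chr4:145246871-145247120, minus strand): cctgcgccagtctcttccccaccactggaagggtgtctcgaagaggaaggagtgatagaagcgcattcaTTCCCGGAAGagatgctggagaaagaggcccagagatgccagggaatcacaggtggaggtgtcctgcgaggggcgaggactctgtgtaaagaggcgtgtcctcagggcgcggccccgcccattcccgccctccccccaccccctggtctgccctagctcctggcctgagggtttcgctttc
Ifngr1 (chr10:19591699-19591948, plus strand): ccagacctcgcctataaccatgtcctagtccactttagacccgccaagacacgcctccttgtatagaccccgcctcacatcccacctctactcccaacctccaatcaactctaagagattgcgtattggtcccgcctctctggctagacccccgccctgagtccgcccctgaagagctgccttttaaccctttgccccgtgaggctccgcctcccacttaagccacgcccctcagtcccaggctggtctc
Ifngr2 (chr16:91546809-91547058, plus strand): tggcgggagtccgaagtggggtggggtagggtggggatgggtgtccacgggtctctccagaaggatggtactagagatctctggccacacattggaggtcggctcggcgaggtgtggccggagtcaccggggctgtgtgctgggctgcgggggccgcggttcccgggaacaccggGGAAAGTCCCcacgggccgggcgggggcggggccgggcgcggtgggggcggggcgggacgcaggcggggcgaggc
The Il2rg window held 1 ETS match close to the start. In Tnfrsf1b the GAS and ETS matches overlapped in a single run of capitals. Ifngr2 held 1 kappa-B match and Ifngr1 held none of the 4 motifs. Among the windows not printed, Tnfrsf1a held a GAS and an ETS match, and Il17rc and Il4ra held none. Of 32851 mouse promoter windows of this length, 7.02% held the GAS element, 6.91% the ETS site, 7.25% the kappa-B site and 6.75% the AP-1 site. A match describes letters and is not a bound site.

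The genes lie on 6 chromosomes of GRCm38 (GENCODE vM21): Il17ra at 6:120463247-120487559, Il17rc at 6:113471427-113483140, Tnfrsf1a at 6:125349362-125362484, Traf3ip2 at 10:39612934-39655307, Ifngr1 at 10:19591949-19610229, Tnfrsf1b at 4:145213463-145246870, Ifngr2 at 16:91547072-91565623, Il4ra at 7:125552120-125579474 and Il2rg at X:101264378-101268255. Traf3ip2 overlaps Gm16365 and E130307A14Rik, and Il4ra overlaps Gm44876, each on the opposite strand. Il2rg overlaps Gm20489 on its own strand, a gene that is absent from the count matrices. Reads of Il2rg and Gm20489 cannot be told apart in these counts.

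Fibroblasts were first summed per mouse over their 5 classes (Lining, Mmp3+, Il6+, Cd200+ and Pi16+). Levels are given as CPM, a gene's UMIs relative to all UMIs of a mouse's fibroblasts after scaling by trimmed means (TMM), and differences as log2 fold changes ± standard error. Each p-value is from edgeR's quasi-likelihood test, adjusted by Benjamini-Hochberg over all genes tested, with a threshold of 0.05. A lower sum can come from fewer cells of a class that expresses the gene or from less RNA per cell, and in sums over classes these cannot be told apart. The mice are the replicates.

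**Figure D1:**
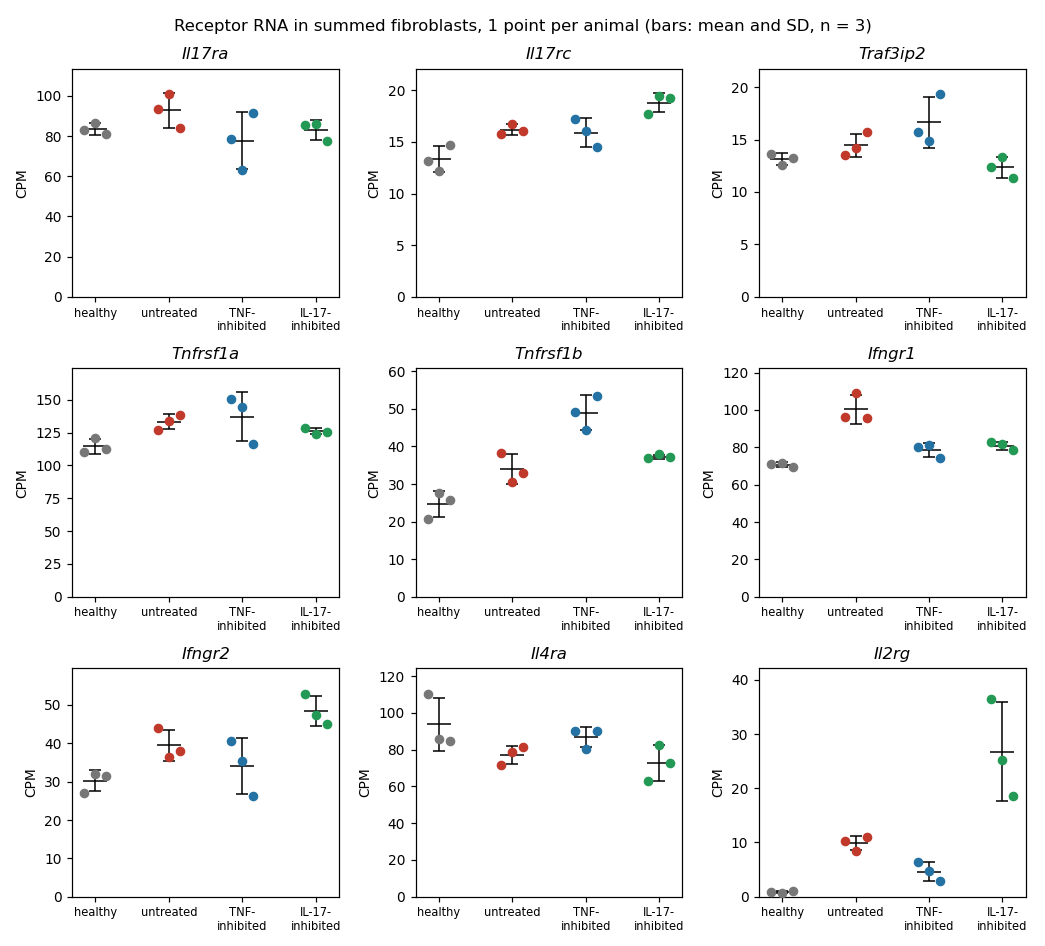
Level of each of the 9 genes (CPM, linear axes from 0) in summed fibroblasts of the 12 mice not sorted for FAP. Each point is 1 mouse, and bars give the mean and SD of the 3 mice of a group; Il2rg lies at or below 1.005 CPM in healthy mice and at 18.5 CPM or above in IL-17-inhibited mice.

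Untreated arthritic mice differed from healthy mice in 3 of the 9 genes, all higher: Il2rg, Ifngr1 and Tnfrsf1b. Over all 14348 genes tested, 28.7% passed the same threshold, 14.4% higher and 14.3% lower. The groups did not overlap for 7 of the 9 genes, against 45.1% of all genes. The median difference of the 9 genes was 0.29, and that of all genes 0.01. The class mix differed between these groups. Pi16+ cells made up 736 of 1703 healthy and 54 of 4743 untreated fibroblasts, and Mmp3+ cells 57 and 1854. RNA of other cell types also differed in these sums, in both directions. The summed level of 7 keratinocyte markers was 128 to 340 CPM in healthy and 32.6 to 35.7 CPM in untreated arthritic mice. That of 6 osteoblast markers was 347 to 546 against 57.1 to 173 CPM. Going the other way, 5 neutrophil markers summed to 16.1 to 17.6 against 45.4 to 57.1 CPM, and 14 leukocyte markers to 15.4 to 16.7 against 49.7 to 57.4 CPM. The part of these in the differences was not tested.

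Il2rg showed the largest difference of the 9 genes. Its level was 0.837, 0.661 and 1.005 CPM in the healthy mice and 10.2, 8.5 and 10.9 CPM in the untreated arthritic mice. Every arthritic mouse lay far above every healthy mouse. The difference was 3.57 ± 0.45 on the log2 scale (adjusted p = 6.43e-05), an 11.9-fold rise that rests on 16 UMIs in healthy and 750 UMIs in arthritic fibroblasts. Over the healthy cells whose hashtag was highest by raw count, which held 2, 2 and 0 Il2rg UMIs, the difference was 3.77 ± 0.73 (adjusted p = 0.00255).

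Ifngr1, which encodes the ligand-binding chain of the interferon-gamma receptor, stood at 71.1, 71.7 and 69.3 CPM in healthy and 96.2, 109 and 95.6 CPM in untreated arthritic mice. The healthy values were tightly grouped and lay below all arthritic ones. Its rise was 0.50 ± 0.08 (adjusted p = 0.000284), or 1.42-fold. Ifngr2, the partner chain, had 27.1, 32.0 and 31.6 CPM in healthy and 44.1, 36.4 and 38.0 CPM in arthritic mice. The groups did not overlap, but the difference of 0.39 ± 0.14 missed the threshold (adjusted p = 0.0612). It passed when no filter on low counts was used (0.43, adjusted p = 0.0276) and when only these groups were fitted (0.38, adjusted p = 0.0207).

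The TNF receptor genes both read higher in arthritic mice, and 1 of them passed. Tnfrsf1b had 20.8, 27.6 and 25.7 CPM in healthy and 38.3, 30.6 and 33.0 CPM in untreated arthritic mice. All arthritic values exceeded all healthy ones, with a rise of 0.46 ± 0.12 (adjusted p = 0.0103), or 1.38-fold. Tnfrsf1a had 110.1, 120.9 and 113 CPM in healthy and 127, 134 and 138 CPM in arthritic mice. These groups did not overlap either, yet the difference of 0.22 ± 0.10 did not pass (adjusted p = 0.102). Over the healthy cells with the highest raw hashtag count it was 0.50 ± 0.12 (adjusted p = 0.0113).

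None of the IL-17 receptor genes passed in this comparison. Il17rc had 13.1, 12.2 and 14.7 CPM in healthy and 15.8, 16.8 and 16.1 CPM in arthritic mice, groups that did not overlap, with a difference of 0.29 ± 0.10 just outside the threshold (adjusted p = 0.0515). Without healthy mouse 3 it was 0.36 (adjusted p = 0.0381). Il17ra, the shared chain, had 83.0, 86.7 and 81.0 CPM in healthy and 93.6, 100.8 and 83.8 CPM in arthritic mice, which overlapped. Its interval ran from -0.11 to 0.41 around 0.15. Traf3ip2 ranged over 12.6 to 13.6 CPM in healthy and 13.5 to 15.7 CPM in arthritic mice, with an interval of -0.13 to 0.41.

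Il4ra was the only one of the 9 genes with a lower mean in arthritic mice. It had 110.5, 86.1 and 84.6 CPM in healthy and 71.7, 78.5 and 81.3 CPM in untreated arthritic mice. The groups did not overlap, and the difference of -0.28 ± 0.12 did not pass (adjusted p = 0.0971). It lost its direction over the healthy cells with the highest raw hashtag count (0.01 ± 0.16), and against the healthy mouse of the untreated library alone, a single mouse assumed to vary like the other groups, it was -0.51 (adjusted p = 0.0389).

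**Figure D2:**
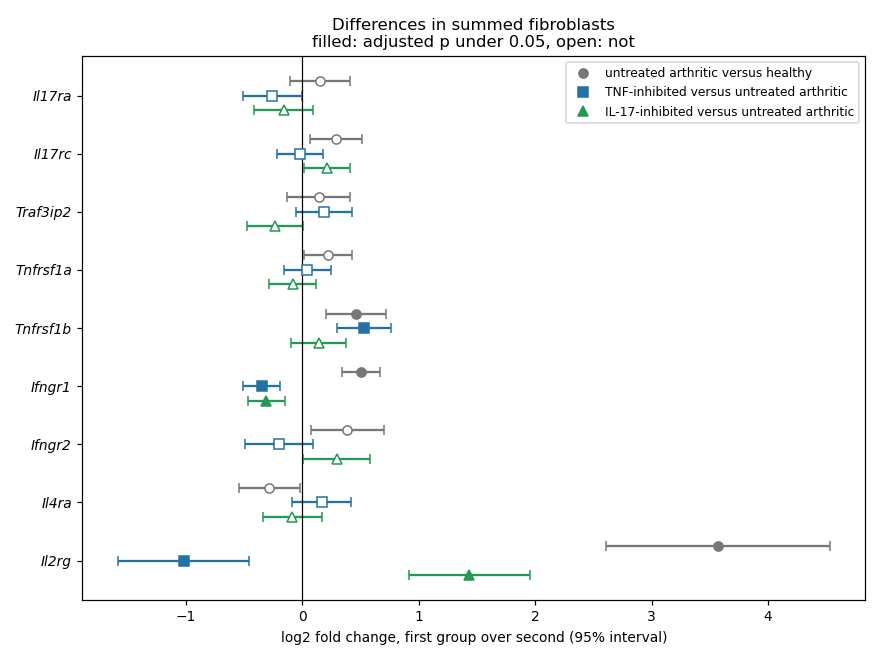
Log2 fold change of the 9 genes in 3 comparisons of summed fibroblasts (x axis), with 95% intervals. Filled symbols passed the threshold: Il2rg lies at 3.57 for untreated arthritic against healthy, and at -1.02 and 1.43 for TNF-inhibited and IL-17-inhibited against untreated arthritic mice.

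Mice given the antibody against human TNF differed from untreated arthritic mice in 3 of the 9 genes, against 5.55% of all genes (2.53% higher, 3.02% lower). Tnfrsf1b rose, and Ifngr1 and Il2rg fell. The groups did not overlap for these 3 genes and for no other of the 9, against 29.9% of all genes. RNA of other tissues moved with this comparison: the summed level of 8 muscle markers was 219 to 312 CPM in untreated and 94.5 to 136 CPM in TNF-inhibited mice (4 of 8 lower), that of 7 keratinocyte markers 32.6 to 35.7 against 53.6 to 74.8 CPM (2 of 7 higher) and that of 4 erythroid markers 2.02 to 2.60 against 0.069 to 0.178 CPM. The part of these in the differences was not tested. Both inhibitor comparisons share the 3 untreated arthritic mice as reference.

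Tnfrsf1b had 49.1, 44.3 and 53.5 CPM in TNF-inhibited mice, all above the 38.3, 30.6 and 33.0 CPM of untreated ones. It rose by 0.53 ± 0.11 (adjusted p = 0.0222), or 1.44-fold. Left out in turn, untreated mouse 2 or 3 took the call away (0.46, adjusted p = 0.0831 and 0.51, adjusted p = 0.0757). The TNF-inhibited values were thus above the untreated arthritic values, which were in turn above the healthy values.

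Ifngr1 had 80.4, 81.2 and 74.4 CPM in TNF-inhibited mice, below the 96.2, 109 and 95.6 CPM of untreated mice and above every healthy mouse. It fell by 0.35 (SE 0.07, adjusted p = 0.0245). The call was lost without untreated mouse 1, 2 or 3 or TNF-inhibited mouse 2, with adjusted p = 0.0702, 0.0900, 0.0527 and 0.0568 and differences of -0.38, -0.28, -0.38 and -0.37. Ifngr2 had 40.6, 35.3 and 26.3 CPM and overlapped untreated mice (-0.20 ± 0.14, adjusted p = 0.405).

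Il2rg had 6.35, 4.74 and 2.85 CPM in TNF-inhibited mice, between the healthy and the untreated arthritic values and overlapping neither. It fell by 1.02 (SE 0.26, adjusted p = 0.0414), or 2.03-fold. This call rested on all but 1 of the 6 mice: it was lost without untreated mouse 1, 2 or 3 (-1.001, -1.13 and -0.93) and without TNF-inhibited mouse 2 or 3 (-0.99 and -0.83), at adjusted p from 0.0704 to 0.122. Over cells with no UMI of 14 leukocyte markers it was -0.86 (adjusted p = 0.0603).

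The remaining 6 genes did not pass. Tnfrsf1a had 151, 145 and 116 CPM in TNF-inhibited mice, the last of them below every untreated mouse, with a difference of 0.04 ± 0.09 and an interval of -0.16 to 0.24. Il17ra had 78.5, 63.1 and 91.6 CPM, with an interval of -0.51 to -0.01 and adjusted p = 0.201. Il17rc (interval -0.22 to 0.18), Traf3ip2 (-0.06 to 0.42) and Il4ra (-0.09 to 0.42) overlapped the untreated mice.

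Mice given the antibody against IL-17A differed from untreated arthritic mice in 2 of the 9 genes, against 8.45% of all genes (3.8% higher, 4.65% lower): Il2rg rose and Ifngr1 fell. The groups did not overlap for 5 of the 9 genes, against 35.9% of all genes. Muscle markers summed to 60.3 to 100.4 CPM in IL-17-inhibited mice (8 of 8 lower than in untreated mice), keratinocyte markers to 76.0 to 95.5 CPM (6 of 7 higher) and osteoblast markers to 128 to 204 CPM (4 of 6 higher). Their part in the differences was not tested.

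Il2rg had 36.5, 25.3 and 18.5 CPM in IL-17-inhibited mice, all above the 10.2, 8.5 and 10.9 CPM of untreated mice. It rose by 1.43 ± 0.24 (adjusted p = 0.00546), or 2.70-fold, with 2287 UMIs against 750. The call held in each of the 6 fits that left out 1 mouse, with differences of 1.14 to 1.64. The SD of 9.08 CPM around their mean of 26.7 CPM was the largest of the 4 groups.

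Ifngr1 had 82.6, 81.6 and 78.5 CPM in IL-17-inhibited mice, again below every untreated mouse and above every healthy mouse. It fell by 0.31 (SE 0.07, adjusted p = 0.0233). Without untreated mouse 1 or 2, or IL-17-inhibited mouse 2 or 3, the call was lost at -0.34, -0.25, -0.32 and -0.29 (adjusted p = 0.0546, 0.113, 0.0737 and 0.0795). The interval of the difference between the inhibitor groups ran from -0.12 to 0.20 for Ifngr1.

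Ifngr2 had 52.8, 47.4 and 45.1 CPM in IL-17-inhibited mice, above every untreated mouse, but 0.30 ± 0.13 did not pass (adjusted p = 0.191). Il17rc had 17.7, 19.4 and 19.3 CPM, also above the untreated values (0.21 ± 0.09, adjusted p = 0.165). Traf3ip2 had 12.4, 13.4 and 11.4 CPM, below the untreated values (-0.23 ± 0.11, adjusted p = 0.219). Il17ra, the receptor chain of the neutralised cytokine, had 85.6, 86.1 and 77.5 CPM and overlapped (interval -0.41 to 0.09). Tnfrsf1a (-0.28 to 0.12), Tnfrsf1b (-0.09 to 0.38) and Il4ra (-0.34 to 0.17) overlapped as well.

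Compared directly, IL-17-inhibited mice differed from TNF-inhibited mice in 4 of the 9 genes, against 7.6% of all genes (4.54% higher, 3.05% lower), with no overlap for 5 genes (25.4% of all genes). Il2rg was 5.48-fold higher under IL-17 inhibition (2.45 ± 0.26, adjusted p = 0.000282), and it passed in each fit that left out 1 mouse (2.15 to 2.73). Ifngr2 was higher (0.49 ± 0.13, adjusted p = 0.0405), and Tnfrsf1b (-0.39 ± 0.11, adjusted p = 0.0444) and Traf3ip2 (-0.41 ± 0.11, adjusted p = 0.0392) were lower. These 3 calls were fragile: that of Tnfrsf1b was lost whichever of the 6 mice was left out (adjusted p from 0.0546 to 0.112), that of Traf3ip2 whichever was left out other than TNF-inhibited mouse 2 (0.0510 to 0.126) and that of Ifngr2 whichever was left out other than TNF-inhibited mouse 1 (0.0544 to 0.141). The Traf3ip2 call was also lost with the hashtag number as a block (-0.43, adjusted p = 0.0790).

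A fit with library as a further term, whose library effects come from 1 healthy mouse each, called none of the 9 genes and 0 of 14348 genes by edgeR in any comparison between treatments. At an unadjusted p under 0.05 it held 799 genes for TNF-inhibited, 1107 for IL-17-inhibited against untreated mice and 1028 for the inhibitors against each other, among them 2, 0 and 0 of the 9 genes. Il2rg then stood at -0.68 (TNF-inhibited) and 1.17 (IL-17-inhibited) against untreated mice, and at 1.85 between the inhibitors. For Tnfrsf1b it gave 0.12 under TNF inhibition. The healthy mice that set these library effects had 0.837, 0.661 and 1.005 CPM of Il2rg.

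Fibroblasts of the FAP-sorted library differed from untreated arthritic fibroblasts in 6 of the 9 genes, against 42.9% of 13418 genes tested (21.3% higher, 21.5% lower), and 7 did not overlap (41.9% of all genes). These mice were compared in a separate fit of 8 mice, whose scaling gives slightly other levels. On that scaling muscle markers summed to 206 to 290 CPM in untreated and 3.27 to 4.21 CPM in FAP-sorted mice (8 of 8 lower), 5 neutrophil markers to 42.2 to 53.7 against 101 to 130 CPM (5 of 5 higher) and 7 endothelial markers to 9.39 to 11.2 against 3.35 to 5.18 CPM (3 of 5 tested lower). The part of these in the differences was not tested. Il17ra had 61.5, 72.8, 47.4, 47.9 and 65.0 CPM in FAP-sorted and 88.1, 93.8 and 78.0 CPM in untreated mice, and was lower by every comparison of 1 mouse with another (-0.56 ± 0.14, adjusted p = 0.00828). Its partner Il17rc went the other way, with 19.3, 21.6, 21.3, 21.8 and 19.6 CPM against 14.9, 15.6 and 14.96 CPM (0.45 ± 0.07, adjusted p = 0.000708). Both chains of the IL-17A receptor thus differed in these sums, in opposite directions and with no overlap. The class mix differed as well. Il6+ cells were 1099 of 5893 FAP-sorted and 2241 of 4743 untreated fibroblasts, and Mmp3+ cells 3680 and 1854. Within Il6+ cells Il17ra had 139 ± 23.0 against 165 ± 7.39 CPM (SD) and Il17rc 22.4 ± 4.33 against 13.4 ± 1.00 CPM. Within Mmp3+ cells these were 48.8 ± 4.51 against 57.1 ± 5.91 and 23.0 ± 1.26 against 19.3 ± 1.73 CPM. The part of the mix was not tested.

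Il4ra was higher after the FAP sort (92.8, 87.3, 129, 123 and 106 against 67.5, 73.0 and 75.8 CPM), by 0.58 ± 0.13 (adjusted p = 0.00468). Traf3ip2 (-0.45, adjusted p = 0.00198), Tnfrsf1b (-0.35, adjusted p = 0.00685) and Ifngr1 (-0.25, adjusted p = 0.0258) were lower. The Ifngr1 call was lost without untreated mouse 2 (-0.19, adjusted p = 0.123) and without FAP-sorted mouse 3 (-0.21, adjusted p = 0.0599). It was also lost over cells with no UMI of 14 leukocyte markers (-0.20, adjusted p = 0.120). Tnfrsf1a, Ifngr2 and Il2rg did not pass. Il2rg had 8.87, 5.72, 8.04, 6.66 and 5.86 CPM against 9.60, 7.90 and 10.2 CPM, a difference of -0.38 ± 0.15 that passed only without FAP-sorted mouse 1 (-0.47, adjusted p = 0.0282).

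The 7 annotated classes differed in their levels of several genes. These levels describe classes that were made from the same cells, so no test is given. They cover 12 to 17 mice with at least 20 cells of a class, and neighbours in the order are called apart where the mean difference within mice exceeded its SD. The groups are not spread alike over the classes. The 12 mice of Pi16+ were 5 FAP-sorted, 3 healthy, 3 IL-17-inhibited and 1 untreated, with no TNF-inhibited mouse.

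**Figure D3:**
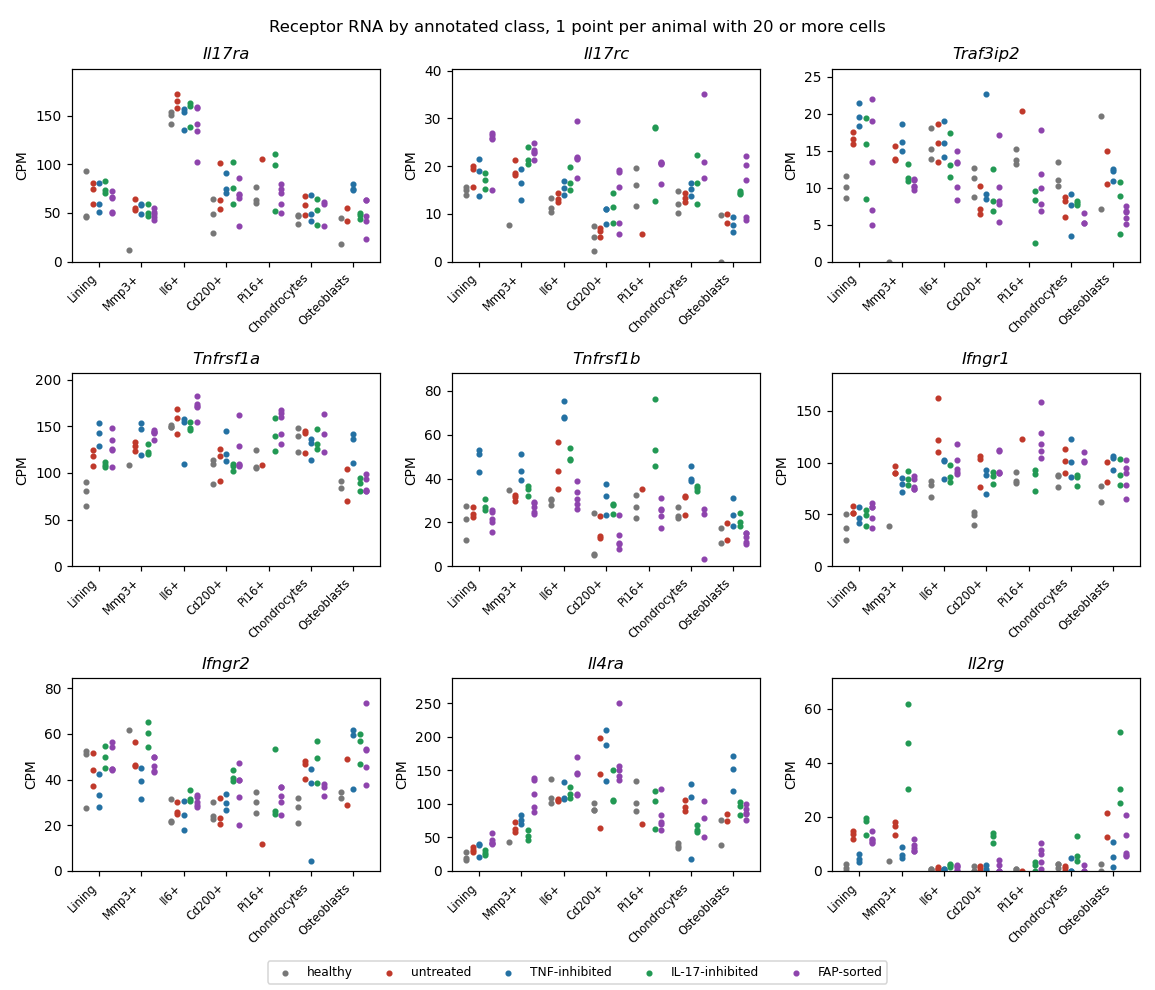
Level of the 9 genes (CPM, linear axes from 0) by annotated class, 1 point per mouse with 20 or more cells, coloured by group. Il17ra stands highest in Il6+ fibroblasts (149 ± 16.4 CPM), and Il4ra and Ifngr1 lowest in Lining cells (33.3 ± 10.8 and 48.2 ± 9.57 CPM).

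Il17ra was highest in the Il6+ class, at 149 ± 16.4 CPM (SD, n = 17). It lay above Pi16+, the next class, in 12 of 12 mice (by 71.8 ± 20.2 CPM), and the Mmp3+ class was lowest at 49.9 ± 12.03 CPM (n = 15). The other classes lay between, with Lining above Chondrocytes in 14 of 15 mice and no other neighbours apart. Il17rc, its partner, did not follow that order: Lining (19.1 ± 4.63 CPM), Mmp3+, Chondrocytes, Pi16+ and Il6+ could not be separated. Il6+ exceeded Osteoblasts in 14 of 15 mice, and Cd200+ was lowest (9.69 ± 4.87 CPM). Traf3ip2 ran from 14.7 ± 5.33 CPM in Lining to 7.90 ± 2.50 CPM in Chondrocytes with no neighbours apart.

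Tnfrsf1a was also highest in Il6+ cells (156 ± 16.3 CPM), above Chondrocytes in 14 of 15 mice, and lowest in Osteoblasts (95.9 ± 20.5 CPM). Tnfrsf1b ran from 43.8 ± 15.8 CPM in Il6+ to 17.3 ± 5.92 CPM in Osteoblasts with no neighbours apart. Scaled by raw totals in place of TMM, the highest class of Traf3ip2, Tnfrsf1a and Tnfrsf1b became Pi16+.

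Ifngr1 was high in Pi16+ (104 ± 24.5 CPM) and Il6+ (98.3 ± 21.9 CPM) cells and lowest in Lining cells, below Mmp3+ in 15 of 15 mice. No other neighbours in its order stood apart. Ifngr2 had nearly the opposite order, with Mmp3+ (49.3 ± 8.98 CPM), Osteoblasts and Lining on top and Il6+ (28.2 ± 4.77 CPM) and Pi16+ (30.6 ± 9.95 CPM) at the bottom, but no neighbours stood apart. Il4ra had its highest means in Cd200+ (142 ± 48.5 CPM) and Il6+ (121 ± 19.2 CPM) cells and was lowest in Lining, below Mmp3+ in 15 of 15 mice. Cd200+ exceeded Il6+ in 8 of 17 mice, and no neighbours other than Mmp3+ and Lining stood apart.

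Il2rg was highest in 3 classes: Mmp3+ (17.1 ± 16.8 CPM), Osteoblasts (14.2 ± 13.8 CPM) and Lining (9.92 ± 5.96 CPM). Lining exceeded Cd200+, the next class, in 16 of 17 mice, and Il6+ was lowest at 1.14 ± 0.76 CPM. Mmp3+ cells made up 57 of 1703 healthy, 1854 of 4743 untreated, 2259 of 4305 TNF-inhibited and 1920 of 5087 IL-17-inhibited fibroblasts, so the share of this class moved with the summed Il2rg level between healthy and arthritic mice. The comparison of treatments within classes therefore follows.

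Within classes, 11 differences passed among the tested pairs of a gene and a class: 5 for untreated arthritic against healthy mice, 4 for TNF inhibition and 2 for IL-17 inhibition. Pi16+ cells numbered 736 in healthy, 54 in untreated, 9 in TNF-inhibited and 123 in IL-17-inhibited mice. They were too few in untreated mice for any of these comparisons. Mmp3+ cells reached 20 in only 1 healthy mouse, and Il2rg did not pass the filter on low counts in Il6+ cells and Chondrocytes. Osteoblasts reached 20 in only 2 healthy and 2 untreated mice, so each Osteoblasts comparison with untreated mice used 2 of them. Tnfrsf1b, which was higher in the sums of untreated arthritic than of healthy mice, passed that comparison in none of the classes tested. Likewise Ifngr1, which was lower in the sums under either inhibitor than in untreated mice, passed in no class for these comparisons. Il6+ cells made up 2241 of 4743 untreated, 1237 of 4305 TNF-inhibited and 1857 of 5087 IL-17-inhibited fibroblasts. In them Ifngr1 stood at 132 ± 27.4, 96.0 ± 10.2 and 88.6 ± 8.40 CPM (SD). The part of the mix in the Ifngr1 sums was not tested.

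In Lining cells, 2 of 9 genes were higher in untreated arthritic than in healthy mice, against 13.2% of all genes in that class. Tnfrsf1a had 64.8, 80.3 and 90.0 CPM in healthy and 107, 118 and 124 CPM in arthritic mice, with no overlap, and rose by 0.59 ± 0.15 (adjusted p = 0.0119). Without healthy mouse 1 (0.45, adjusted p = 0.0830) or untreated mouse 3 (0.55, adjusted p = 0.0530) it did not pass. Il2rg had 2.59, 1.25 and 0 CPM against 11.7, 14.7 and 13.6 CPM, a rise of 2.97 ± 0.50 (adjusted p = 0.000771) from 4 to 90 UMIs.

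In Il6+ cells Tnfrsf1a had 149.6, 151 and 149 CPM in healthy and 142, 158 and 169 CPM in untreated arthritic mice, which overlapped. The difference between Lining and Il6+ cells in this response was 0.56 ± 0.16 (interaction in edgeR, adjusted p = 0.0297), the only one of the 9 genes to pass in any of the 9 interactions tested. Of all genes 4.55% passed in this one, 0.0964% and 0.185% in Lining under TNF and IL-17 inhibition, 1.39%, 0.0371% and 0.0519% in Mmp3+ and 0.245%, 0.0667% and 0 in Cd200+ cells. The Mmp3+ interaction with healthy mice rests on 1 healthy mouse. The Tnfrsf1a interaction could not be fitted with a minimum of 50 cells, since the healthy mice had 49, 42 and 23 Lining cells.

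Ifngr1 rose in 2 of the classes. In Il6+ cells, where 6.91% of all genes passed, it had 82.0, 78.9 and 66.9 CPM in healthy and 110.2, 163 and 122 CPM in arthritic mice (0.77 ± 0.16, adjusted p = 0.00770). In Cd200+ cells, where 4.27% passed, it had 49.4, 52.8 and 39.5 CPM against 76.5, 106 and 104 CPM (1.02 ± 0.19, adjusted p = 0.00532). The groups did not overlap in either class, and both calls held whichever mouse was left out.

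Il4ra rose in Chondrocytes, where 12.9% of all genes passed. It had 35.0, 37.9 and 42.1 CPM in healthy and 89.0, 105 and 95.01 CPM in untreated arthritic mice. All arthritic values were above all healthy ones, in contrast to the sums over fibroblasts, and the rise was 1.31 ± 0.30 (adjusted p = 0.00932), or 2.48-fold. Without healthy mouse 1 it was 1.24 (adjusted p = 0.0545). In Osteoblasts, with 2 healthy and 2 untreated mice, 0 of the 9 genes passed by edgeR (1 at an unadjusted p under 0.05), against 5.54% of all genes.

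Under TNF inhibition, the rise of Tnfrsf1b and the fall of Il2rg were found within single classes. In Lining cells, where 1.33% of all genes passed, Tnfrsf1b went from 22.4, 27.1 and 23.8 CPM in untreated to 53.2, 51.3 and 42.9 CPM in TNF-inhibited mice (1.03 ± 0.18, adjusted p = 0.0142), or 2.04-fold, with no overlap. Il2rg went from 11.7, 14.7 and 13.6 to 6.21, 4.53 and 3.21 CPM (-1.45 ± 0.30, adjusted p = 0.0249). With a minimum of 50 cells, these Lining calls were lost (0.99, adjusted p = 0.0528 and -1.52, adjusted p = 0.0811). The Tnfrsf1b call was also lost without TNF-inhibited mouse 2 or untreated mouse 1 or 3 (0.99 to 1.01), and the Il2rg call without TNF-inhibited mouse 2 or untreated mouse 1, 2 or 3 (-1.51 to -1.34).

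In Mmp3+ cells, where 4.21% of all genes passed, Tnfrsf1b went from 29.8, 31.6 and 32.4 to 43.7, 39.2 and 51.1 CPM under TNF inhibition (0.51 ± 0.10, adjusted p = 0.0285). Il2rg went from 18.2, 13.3 and 16.8 to 8.72, 6.07 and 4.69 CPM (-1.21 ± 0.28, adjusted p = 0.0408). Neither pair of groups overlapped. The Tnfrsf1b call was lost without untreated mouse 1, 2 or 3 (0.47 to 0.53), and the Il2rg call without any of the other mice than TNF-inhibited mouse 1 (-1.35 to -1.105). In Il6+ cells Tnfrsf1b had 56.6, 35.1 and 43.5 CPM in untreated and 75.3, 67.6 and 68.3 CPM in TNF-inhibited mice without passing, in a class where 0.254% of all genes did.

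Under IL-17 inhibition, Il2rg in Mmp3+ cells went from 18.2, 13.3 and 16.8 to 61.8, 47.1 and 30.2 CPM (1.54 ± 0.25, adjusted p = 0.00623), where 10% of all genes passed. The lowest inhibited mouse lay above the highest untreated one, and the call held whichever mouse was left out (1.29 to 1.78). In Cd200+ cells, where 1.48% passed, Il2rg went from 0, 1.95 and 1.084 to 10.2, 14.2 and 12.8 CPM (3.17 ± 0.56, adjusted p = 0.00989), from 5 to 122 UMIs. That call was lost without IL-17-inhibited mouse 2 or 3 (3.04 and 3.14) or untreated mouse 2 or 3 (3.71 and 2.96), at adjusted p from 0.0549 to 0.0838.

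The other pairs of class and inhibitor gave 0 calls among the 9 genes by edgeR. Under TNF inhibition these were Il6+ (2 genes at an unadjusted p under 0.05), Cd200+ (1 gene, with 1.07% of all genes passing), Chondrocytes (1 gene, 0%) and Osteoblasts (5 genes, 0.725%). Under IL-17 inhibition they were Lining (0 genes, 0.495%), Il6+ (2 genes, 2.24%), Chondrocytes (1 gene, 0.234%) and Osteoblasts (1 gene, 0.453%). An effect that passed in 1 class and not in another was not thereby shown to differ between them.

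The cells that carried Il2rg were then counted. A UMI of Il2rg was found in 16 of 1703 healthy fibroblasts (0.94%, 95% Wilson interval 0.58 to 1.52%), 334 of 4743 untreated (7.04%, 6.35 to 7.80%), 207 of 4305 TNF-inhibited (4.81%, 4.21 to 5.49%), 746 of 5087 IL-17-inhibited (14.7%, 13.7 to 15.7%) and 413 of 5893 FAP-sorted fibroblasts (7.01%, 6.38 to 7.69%). The intervals cover counting error over pooled cells and not the spread between mice. Cells differ in depth, so each was also thinned to 5000 UMIs, which left out 172 to 448 shallower cells per group. The mean share per mouse was then 0.47% in healthy, 2.88% in untreated, 1.48% in TNF-inhibited, 7.26% in IL-17-inhibited and 2.63% in FAP-sorted mice, the same order as unthinned.

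**Figure D4:**
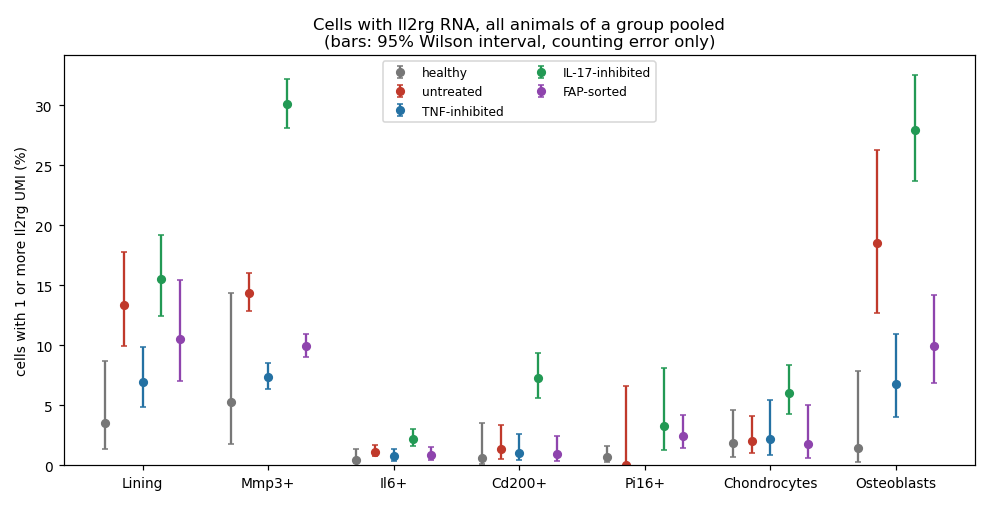
Share of cells with 1 or more Il2rg UMI (%, y axis from 0) by annotated class and group, with 95% Wilson intervals over pooled cells. Mmp3+ fibroblasts and Osteoblasts of IL-17-inhibited mice stand highest, at 30.1% and 27.9%, and Il6+ fibroblasts lie at or below 2.21% in each group.

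In Mmp3+ cells, 14.3% of untreated, 7.35% of TNF-inhibited and 30.1% of IL-17-inhibited cells held an Il2rg UMI. Osteoblasts gave 18.5%, 6.73% and 27.9%, and Lining cells 13.4%, 6.95% and 15.5%. Il6+ cells of the same mice gave 1.12%, 0.73% and 2.21% at a lower depth, with a median of 10554 UMIs per cell over all groups against 20678 in Mmp3+ cells. Thinned to 5000 UMIs, the shares were 5.36%, 2.44% and 14.4% in Mmp3+ and 0.61%, 0.39% and 0.80% in Il6+ cells. No annotated class is known to lack the gene fully, and whether the Il6+ share is background was not tested. That share also differed between groups, from 0.47% in healthy to 2.21% in IL-17-inhibited mice.

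Many of the UMIs sat in few cells. Cells with 3 or more Il2rg UMIs numbered 97 in untreated, 35 in TNF-inhibited and 293 in IL-17-inhibited mice and held 60.4%, 42.3% and 73.2% of all Il2rg UMIs there. No healthy fibroblast had more than 1. The highest counts in a cell were 31, 9 and 19 UMIs in these groups.

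Since Il2rg is best known from leukocytes, leukocyte RNA was measured in the same cells. The summed level of the 14 markers was lowest in healthy mice (15.4 to 16.7 CPM) and reached 49.7 to 57.4 CPM in untreated, 42.8 to 58.7 CPM in TNF-inhibited and 35.7 to 45.4 CPM in IL-17-inhibited mice, mostly Arhgdib and Lyz2. In these 12 mice together Ptprc stayed at or below 0.178 CPM, Nkg7 was at 0 and Cd3e gave 1 UMI. In FAP-sorted mice the list summed to 74.7 to 111 CPM, against 46.3 to 54.0 CPM in untreated mice on the same scaling. The part of this RNA in the Il2rg levels was not tested beyond the split that follows. Of the cells with an Il2rg UMI, 0, 0, 1, 1 and 2 also held a Ptprc UMI among healthy mice, untreated mice, mice under TNF inhibition, mice under IL-17 inhibition and FAP-sorted mice.

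In cells with no UMI of any of the 14 markers, Il2rg stood at 0.61, 7.84, 4.33, 23.1 and 6.97 CPM in these groups, against 2.87, 11.99, 5.23, 29.0 and 6.91 CPM in cells with 1 or more. Cells without a marker held 49.3% of the Il2rg UMIs in untreated and 55.5% in IL-17-inhibited mice. For Tnfrsf1b the levels were 32.6 CPM without and 30.9 CPM with a marker in untreated mice, and 46.5 and 40.2 CPM in TNF-inhibited mice. Among healthy mice and the 3 arthritic groups without the sort, the order of the groups was the same for both genes in cells with no leukocyte marker as in all fibroblasts.

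Shares of other genes were compared on thinned cells too. Tnfrsf1b was detected in 11.5 ± 1.32% of healthy, 14.1 ± 1.101% of untreated, 18.6 ± 1.07% of TNF-inhibited and 15.8 ± 0.92% of IL-17-inhibited fibroblasts (SD over mice, n = 3). Ifngr1 was detected in 30.9 ± 0.89%, 36.3 ± 2.42%, 29.4 ± 1.29% and 31.8 ± 1.52% in the same order, and Il17ra in 29.6 ± 1.98%, 32.8 ± 2.52%, 26.6 ± 2.15% and 30.3 ± 2.31%. The mean Ifngr1 share under TNF inhibition was thus below the healthy one, whereas in summed CPM every TNF-inhibited mouse lay above every healthy mouse. Tnfrsf1a was the most widely detected of the 9, in 44.1 to 46.2% of cells on average in these groups.

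RNA of several ligands was scarce in fibroblasts, but Il17d gave 3412, Il7 1349, Tslp 1010 and Il2 575 UMIs. Il17a and Il17c gave 0 UMIs in all 17 mice, Il17f 3, Ifng 6, Il4 9 and Il13 5. Mouse Tnf gave 246 UMIs, of which 7 were in healthy, 58 in untreated, 55 in TNF-inhibited, 91 in IL-17-inhibited and 35 in FAP-sorted mice. The human transgene was not analysed here. Il15, a ligand of a receptor with the common gamma chain, gave 1540 UMIs and rose under IL-17 inhibition from 2.83 ± 1.40 to 7.48 ± 1.19 CPM (1.33 ± 0.30, adjusted p = 0.0197). Il17d, an IL-17 family member, was lower in untreated arthritic than in healthy mice (8.07 ± 0.40 against 53.5 ± 5.10 CPM, adjusted p = 1.02e-07).

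The partners of the receptors were read from lists of known pathway genes. The counts below stand beside 28.7% of all genes that passed for untreated arthritic against healthy mice, 5.55% for TNF inhibition and 8.45% for IL-17 inhibition, and none was tested against that share. Of the 12 genes of interferon-gamma signalling, 6 were higher and 1 lower in untreated arthritic than in healthy mice, with a median of 0.34. Ptpn1, a phosphatase of JAK kinases, rose by 1.34 ± 0.12 (adjusted p = 3.36e-06), and Jak2 by 1.20 ± 0.13 (adjusted p = 2.03e-05). Under TNF inhibition 2 of the 12 fell, Jak2 (-0.50, adjusted p = 0.0393) and Jak1 (-0.40, adjusted p = 0.0498), in the mice in which Ifngr1 fell. Under IL-17 inhibition 1 rose, Socs1, a brake on JAK kinases (0.55, adjusted p = 0.0401). Of 21 tested genes that respond to interferon-gamma, 14 were higher and 1 lower in untreated arthritic mice, and 7 and 5 of the 21 were higher under TNF and IL-17 inhibition than in untreated mice, with none lower. B2m, the light chain of class I molecules, rose in each of these 3 comparisons (1.58, 0.77 and 1.16).

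Of 17 tested genes of IL-17 receptor signalling, 1 was higher and 2 lower in untreated arthritic mice, a share below that of all genes: Traf2 rose (0.69, adjusted p = 0.00354), while Il17rd (-0.69, adjusted p = 0.00254) and Traf5 (-0.995, adjusted p = 0.00812) fell. Under IL-17 inhibition 2 fell, Zc3h12a, which encodes the ribonuclease regnase-1 (-0.35, adjusted p = 0.0311), and Nfkbiz, which encodes a co-activator of IL-17 target genes (-0.34, adjusted p = 0.0371). Of 18 IL-17 response genes, 9 were higher and none lower in untreated arthritic mice, and 7 were lower and 1 higher under IL-17 inhibition. Lcn2, an iron-binding antimicrobial protein, stood at 369 ± 146 CPM in healthy, 5477 ± 460 in untreated and 1692 ± 618 CPM in IL-17-inhibited mice. Under TNF inhibition 0 of the 18 passed by edgeR, with 5 at an unadjusted p under 0.05.

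Of 27 genes of TNF receptor signalling, 5 were higher and 3 lower in untreated arthritic mice, a share close to that of all genes. Traf1, which binds TNFR2, rose by 2.04 ± 0.22 (adjusted p = 1.57e-05), Casp8 rose by 0.78 ± 0.11 (adjusted p = 0.000178) and Ripk1, the kinase recruited by TNFR1, fell by 0.70 (adjusted p = 0.000259). Under TNF inhibition 1 of 27 fell, Ripk1 again (-0.47, adjusted p = 0.0270), and under IL-17 inhibition 1 rose, Traf1 (0.59, adjusted p = 0.0363). Of 16 tested genes of the TNF and NF-kappa-B response, 7 were higher and 4 lower in untreated arthritic mice, 1 rose under TNF inhibition and 5 rose under IL-17 inhibition.

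Among 12 tested genes of type 2 and common gamma chain signalling, 3 were higher and 4 lower in untreated arthritic mice. Il13ra1, the stromal partner of Il4ra, rose by 1.01 ± 0.08 (adjusted p = 1.36e-06), and Jak3, the kinase bound by the common gamma chain, rose by 1.54 ± 0.33 (adjusted p = 0.00320) from 0.66 ± 0.30 to 1.82 ± 0.17 CPM. Stat5b fell by 0.87 (adjusted p = 0.00130). Under TNF inhibition Stat5a (-0.48, adjusted p = 0.0388) and Jak1 fell, and under IL-17 inhibition 0 of 12 passed by edgeR, with 2 at an unadjusted p under 0.05. Of 12 tested genes that respond to IL-4 and IL-13, 3 were higher and 3 lower in untreated arthritic mice.

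Other receptors of the same families were counted as well. Of 25 tested cytokine receptor genes, 10 were higher and 1 lower in untreated arthritic mice. Among them Ifnar2, a chain of the type I interferon receptor, rose by 0.84 ± 0.08 (adjusted p = 4.11e-06). Il23r rose by 4.72 ± 0.74 (adjusted p = 0.000363) and Csf2rb by 3.25 ± 0.59 (adjusted p = 0.00106), both from healthy levels near 0. Il23r went from 0.107 ± 0.101 to 2.81 ± 0.54 CPM and Csf2rb from 0.72 ± 0.11 to 7.03 ± 2.05 CPM. Of 16 tested genes of the TNF receptor superfamily, 3 were higher and 2 lower, again close to the share of all genes. Tnfrsf9 rose by 3.90 ± 0.42 (adjusted p = 1.78e-05), from 0.61 ± 0.55 to 7.93 ± 1.14 CPM. Under IL-17 inhibition 5 of the 25 cytokine receptors fell, led by Il1r1 (-0.63 ± 0.10, adjusted p = 0.00476), and none rose. Under TNF inhibition 4 fell, led by Cntfr (-1.11 ± 0.17, adjusted p = 0.00768), and 1 rose, Il18rap.

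Genes with the pattern most like each of the 9 were named from Pearson correlations over 31 sets of cells (a class in a group, at least 100 cells) among 7381 genes with a mean of at least 10 CPM. These sets share libraries and depth, and the values are descriptions. Il4ra was most like Dact1 (r = 0.917) and Fgf7 (0.911), Il17rc like Mvp (0.885) and Tmem219 (0.883), Ifngr2 like Gmppb (0.873) and Selenof (0.861), and Ifngr1 like Kctd10 (0.872) and Arsj (0.867). Il2rg was most like Eif3c (0.858) and Spg21 (0.830), Il17ra like Pabpc1 (0.853) and Eif4e (0.840), Tnfrsf1a like C4b (0.837) and Gm42679 (0.821), Tnfrsf1b like B4galt5 (0.795) and Rnf213 (0.794), and Traf3ip2 like Prpf4 (0.776) and Map2k1 (0.752). None of the 9 was among the 2 genes most like another.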

How the data were processed

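Single-cell RNA libraries of synovial cells from 17 mice were analysed. The authors deposited raw UMI counts per gene and hashtag for each barcode, made with Cell Ranger: per the file headers version 6.0.0, or 5.0.0 after the FAP sort. The submitters' processing notes instead give version 6.0.6, and mm10 as the genome. Per the labels' protocols, wells were hyper-loaded, which gives droplets with several cells, and no doublet caller was run here. The deposited annotation gave each cell's class and mouse, but how it was made is not stated in the sources at hand. Its genotype and treatment entries matched the hashtag labels in 24227 of 24227 cells.

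Counts were summed per mouse over the 5 fibroblast classes, or per class with at least 20 cells. The sums were tested with edgeR 4.0.16 in R 4.3.3 (filterByExpr, TMM, quasi-likelihood, Benjamini-Hochberg over all genes), with group as the only term: 12 mice together, and 8 mice for the FAP sort. DESeq2 1.42.0 was an alternative. The steps were tested on simulated data. The number in the hashtag label was not used to pair mice: correlations of same-numbered mice ran from -0.174 to 0.194. The 9 genes and the gene lists were chosen with earlier results of these data known. From each list up to 3 genes with the lowest adjusted p per comparison are named, and the 2 genes most like each of the 9. One gene that this rule would name is not reported here. The pattern correlations used log2(CPM + 1). The Wilson intervals are at 95%. Each p-value sets a difference against the spread between mice. The 3 mice of each arthritic treatment shared 1 library, so the spread among them holds no variation between libraries.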

Additional observations from a re-analysis of the deposited data

Results flagged for a closer look

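Among 63 groups of 5 FAP-sorted mice (a gene in a class or in summed fibroblasts), 4 held a mouse far from the others by Dixon's criterion, which chance alone gives in about 1 of 20 groups. Il17rc was lowest in Lining cells of mouse 1 at 14.91 CPM (the others 25.7 to 26.8) and lowest in Pi16+ cells of mouse 3 at 16.27 CPM (20.4 to 20.9). Il2rg was highest in Lining cells of mouse 1 at 14.91 CPM (10.4 to 11.7). Il4ra was highest in Cd200+ cells of mouse 1 at 249.8 CPM (134.8 to 156). The causes were not tested.

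The rise of Tnfrsf1a from healthy to untreated arthritic mice differed between Lining and Il6+ cells by 0.5633 on the log2 scale (interaction, edgeR, adjusted p = 0.0297).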

How the results depend on the processing

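Leaving out 1 mouse gave 3 to 4 calls among the 9 genes for untreated arthritic against healthy, 0 to 3 for TNF-inhibited and 1 to 2 for IL-17-inhibited against untreated, 1 to 2 between the inhibitors and 5 to 7 for the FAP sort; within classes it gave 3 to 6, 0 to 5 and 1 to 3. It reversed Il17rc under TNF inhibition (-0.0809 to 0.0360; above 0 without untreated mouse 2 or TNF-inhibited mouse 3), Tnfrsf1a under TNF inhibition (-0.0286 to 0.149; below 0 without TNF-inhibited mouse 1), and between the inhibitors Il17ra (-0.0328 to 0.229; below 0 without TNF-inhibited mouse 2) and Ifngr1 (-0.000301 to 0.0614; below 0 without TNF-inhibited mouse 3), none of them called.

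With library as a term the counts between treatments were 0, 0 and 0, and Il17rc (0.0844) and Tnfrsf1a (-0.0927) under TNF inhibition, Tnfrsf1b (-0.17) and Il4ra (0.30) under IL-17 inhibition and Il17rc between the inhibitors (-0.0297) reversed. Over healthy cells with the highest raw hashtag count, an alternative chosen after seeing the data, Il4ra reversed (0.0116). Fitting only the groups compared gave 1 call for TNF inhibition and 1 between the inhibitors, and cells with no leukocyte marker gave 2 between the inhibitors. Within classes, a minimum of 50 cells gave 2 calls for TNF inhibition and 0 among the 7 interactions that could still be fitted by edgeR (10 at an unadjusted p under 0.05), which do not include that of Tnfrsf1a in Lining cells, and no filter on low counts gave 9, 9 and 6. The causes were not tested, other than that fewer mice and cells were left in some fits. The class with the highest level was the same for 5 of 9 genes when cells were pooled, and that with the highest share for 2 of 9 unthinned.

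As a replicate block, the hashtag number gave 3 calls for TNF inhibition, 2 for IL-17 inhibition, 3 between the inhibitors and 6 for the FAP sort, and it lost only the Traf3ip2 call between the inhibitors. DESeq2 made the same calls among the 9 genes in all 5 comparisons.

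Over all genes, the 4116 calls for untreated arthritic against healthy became 2701 with the highest raw hashtag count, 2317 with library as a term and 2259 with the healthy mouse of the untreated library alone. The 797 calls for TNF inhibition became 1405 with DESeq2 and 105 to 178 without untreated mouse 1, 2 or 3 or TNF-inhibited mouse 2. The 1212 calls for IL-17 inhibition became 2001 when only these groups were fitted and 326 to 754 when 1 mouse was left out, and the 1090 between the inhibitors became 495 and, without TNF-inhibited mouse 2 or IL-17-inhibited mouse 1 or 2, 473 to 682. Depth limits Il2rg most, with 16 UMIs in healthy fibroblasts.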
